A study of Mus musculus with 6 samples.

Results

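The glucocorticoid receptors and their response genes were examined in the hippocampus as 10 genes chosen by symbol from the 54532 genes of the deposited table, and all 10 were found once and passed the filter on low values. They are the receptors Nr3c1 and Nr3c2 and the response genes Fkbp5, Sgk1, Tsc22d3, Zbtb16, Sult1a1, Pdk4, Cdkn1a and Hif3a. Hippocampal RNA of 3 wild-type (WT) mice and 3 transgenic (TG) mice was sequenced. The TG mice are knock-in mice made with CRISPR/Cas9 in the C57BL/6N background, with the changes G82R and L85P placed in exon 3 of Slc1a2, the gene of the astrocytic glutamate transporter GLT-1, so the allele sits in the gene itself and is not tied to 1 cell type. The methods describe heterozygous offspring of founders mated with C57BL/6 mice and WT littermates as controls, without saying which of them were sequenced, and the age and the time of day of collection are not given in the sources used here. Libraries are named by group and replicate number (WT1, TG1 and so on), values are given in that order, and a shared number is not stated to link 2 mice.

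Corticosterone, the main glucocorticoid of mice, binds 2 nuclear receptors in the hippocampus. The mineralocorticoid receptor, encoded by Nr3c2, has the higher affinity and is abundant in hippocampal neurons, whereas the glucocorticoid receptor, encoded by Nr3c1, is found in neurons, glia and vessels and is occupied when hormone levels rise with stress or the daily peak. Without hormone the receptors are held in the cytoplasm by Hsp90 and its partners, and with hormone they enter the nucleus and bind DNA elements near genes such as Fkbp5, Sgk1 and Tsc22d3, which are widely read as a measure of glucocorticoid action.

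Values are FPKM, the reads of a gene scaled by its length and by the reads of its library, with 16081281 to 18751057 reads on genes per library. Groups were compared with limma on log2(FPKM + 0.1) over 20952 genes, with p adjusted by Benjamini-Hochberg over all of them, and a gene counts as called when that p is under 0.05. Of all genes tested 2 were called, or 0.00955%, and 1238 had an unadjusted p under 0.05, or 5.91%, of which 656 were higher and 582 lower in TG mice, a split that became 473 and 773 after each library was centred on its median. Slc1a2 had an FPKM of 177 to 202 in WT and 207 to 222 in TG libraries. Its log2 fold change was 0.16 (unadjusted p = 0.102 and adjusted p = 0.789 in limma), so it was not called. The TG libraries also lay wholly above the WT libraries in 6.35% of all genes tested. FPKM hold no bases, so the genotype itself could not be read. The tissue was checked by marker lists. The 12 neuronal genes summed to 2006 to 2046 FPKM in WT and 1922 to 2199 in TG libraries, and Ddx3y, on the Y chromosome, lay between 10.6 and 12.3 FPKM in every library while Xist had at most 0.0181. By these genes every library came from a male, whereas the paper gives both sexes among its WT and its TG mice. TG1 and TG2 stood apart by transcripts of the choroid plexus, which lies in the ventricles and makes cerebrospinal fluid. Its 18 marker genes summed to 60.9 to 85.2 FPKM among WT libraries, to 1230 in TG1 and 3886 in TG2, but to 68.3 in TG3, and none was listed at 0. In such bulk tissue, fewer cells of a type and less RNA per cell cannot be told apart.

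Promoter windows of 300 bases, from 250 before to 50 after a transcription start, were read from RefSeq for GRCm38.p6 and were found for 8 of the 10 genes, in 16 windows, since Sgk1, Tsc22d3 and Cdkn1a have several starts. Nr3c1 and Zbtb16 had no window there. Each window was searched for the 15-base receptor element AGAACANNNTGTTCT, which reads the same on both strands, and for its 6-base arm AGAACA on both strands. Among the several windows of Sgk1, that shown holds the element with no mismatch, as do only 3 of all 32851 windows (0.00913%). The window of Sult1a1 is shown because it holds a match with 2 mismatches, where 1.84% of all windows hold one with up to 2. The window of Pdk4 is shown as that of the gene with the smallest p among the 10, and that of Cdkn1a because it holds an element of another factor. Capitals mark the best receptor element in Sgk1 and Sult1a1 and the p53 element in Cdkn1a.
Sgk1, chr10:21993640-21993939, plus strand: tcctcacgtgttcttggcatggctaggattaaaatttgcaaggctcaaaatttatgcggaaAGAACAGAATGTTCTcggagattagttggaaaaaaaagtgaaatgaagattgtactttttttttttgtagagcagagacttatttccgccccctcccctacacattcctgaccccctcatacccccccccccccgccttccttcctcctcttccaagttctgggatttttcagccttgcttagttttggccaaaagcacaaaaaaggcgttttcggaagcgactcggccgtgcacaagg
Sult1a1, chr7:126676369-126676668, minus strand: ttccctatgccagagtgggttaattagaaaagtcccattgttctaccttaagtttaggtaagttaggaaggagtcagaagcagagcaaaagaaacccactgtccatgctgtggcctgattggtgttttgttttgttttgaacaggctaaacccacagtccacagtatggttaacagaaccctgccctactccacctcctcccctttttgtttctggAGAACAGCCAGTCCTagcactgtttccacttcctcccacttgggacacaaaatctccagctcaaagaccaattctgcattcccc
Pdk4, chr6:5496229-5496528, minus strand: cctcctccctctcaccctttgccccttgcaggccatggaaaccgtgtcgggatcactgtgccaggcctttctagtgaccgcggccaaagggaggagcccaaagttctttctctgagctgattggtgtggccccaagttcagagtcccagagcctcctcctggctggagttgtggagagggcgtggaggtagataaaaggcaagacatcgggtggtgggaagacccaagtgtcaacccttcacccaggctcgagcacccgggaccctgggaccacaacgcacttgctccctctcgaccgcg
Cdkn1a, chr17:29090729-29091028, plus strand: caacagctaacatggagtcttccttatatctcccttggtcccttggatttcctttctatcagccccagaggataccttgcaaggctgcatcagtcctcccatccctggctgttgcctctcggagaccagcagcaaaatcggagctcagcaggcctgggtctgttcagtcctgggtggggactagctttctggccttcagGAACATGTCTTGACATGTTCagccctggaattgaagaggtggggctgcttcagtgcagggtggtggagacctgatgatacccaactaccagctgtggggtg

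The element of Sgk1 begins at -189 from the start of that transcript. The match of Sult1a1 begins at -34 and differs from the element by T10A and T13C, counted from 1 at the first base of the element. A further start of Sgk1, with its window at chr10:21985854-21986153, holds a match with C5G and T12A. The other 13 windows, among them those of Fkbp5, Tsc22d3, Nr3c2 and Pdk4, hold none with up to 2 mismatches, which says only that these letters are not in the windows. The arm was found in 5 of the 16 windows (31.2%) and in 18.97% of all windows, and the exact element contains it on both strands. These 5 windows are those of Sgk1 that begin at 21881934, 21991973 and 21993640, and windows of Sult1a1 and Tsc22d3. Sgk1 is thus counted repeatedly. The p53 element, of 20 bases, was found with 1 mismatch in the Cdkn1a window from -51 to -32, and with up to 1 in 0.0883% of all windows, a search added after that sequence was seen.

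Of the 10 genes, none was called in TG against WT mice by limma (0.00477% of all genes were called higher and 0.00477% lower), and none by limma-voom on recovered reads. Sgk1 and Pdk4 had an unadjusted p under 0.05 with both tools, and both values were higher in TG mice, beside 3.13% of all genes tested on the higher side and 2.78% on the lower side. They were also the genes whose groups did not overlap, beside 12.1% of all genes tested, with 6.35% higher and 5.71% lower. The remaining 8 genes had overlapping groups and 95% intervals that included no change. The median log2 fold change was 0.02 for the 8 response genes, 0.07 for the 2 receptors and -0.00 for all genes tested. Single libraries set these medians, which ran from -0.05 without TG1 to 0.14 without WT2 for the response genes, with -0.03 without WT1, and from -0.0091 without WT3 to 0.13 without WT1 for the receptors.

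**Figure D1:**
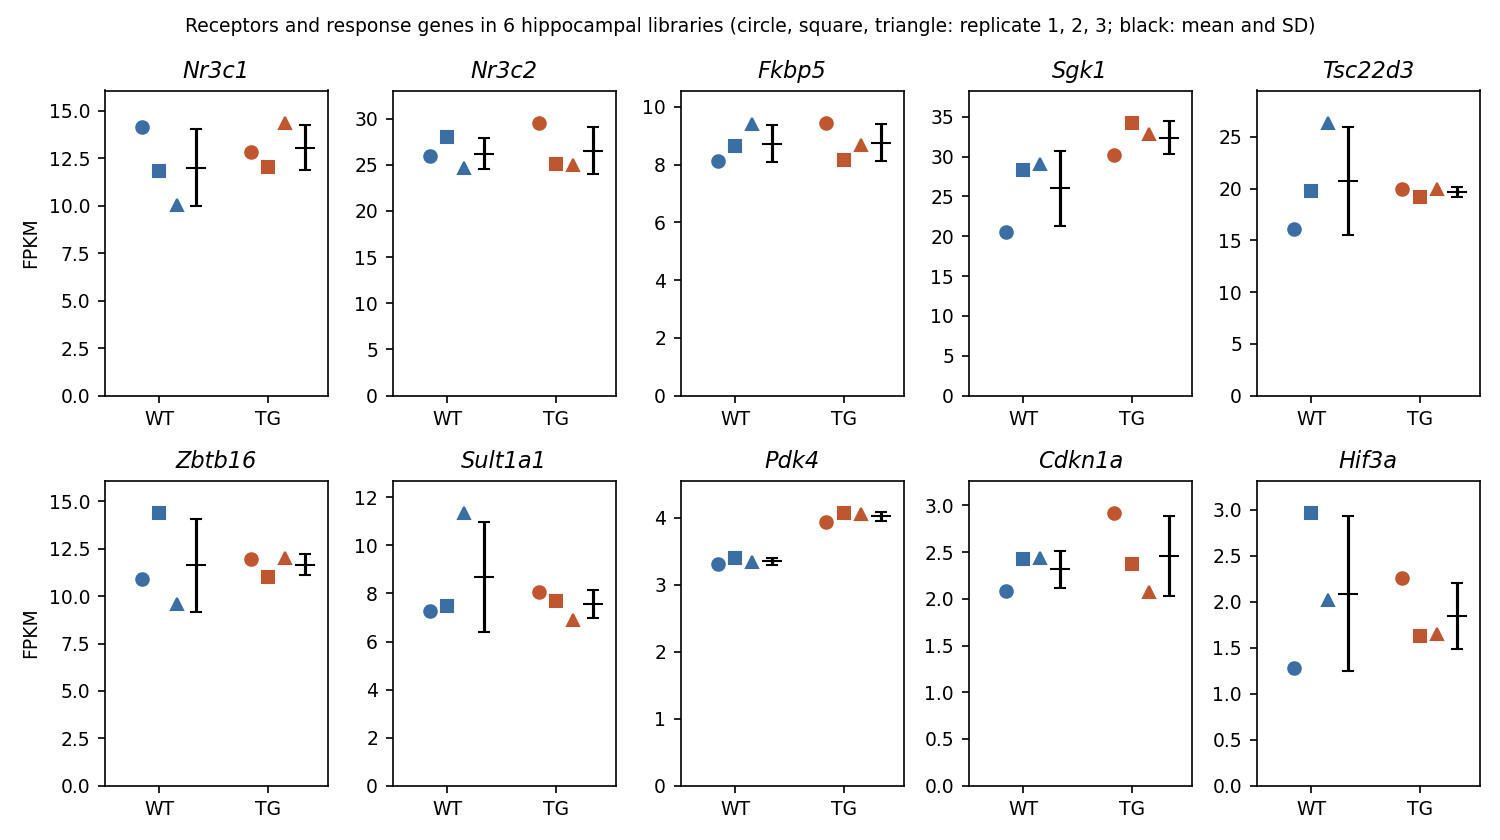
FPKM of the 10 genes (y axis, from 0) in WT and TG libraries, with circle, square and triangle for replicates 1, 2 and 3 and the mean with SD in black. In Sgk1 and Pdk4 the 3 TG points lie above the 3 WT points, and in the other 8 genes the groups overlap.

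Nr3c1 (ENSMUSG00000024431, chromosome 18 from 39410545 to 39491301 in GRCm38, minus strand), the glucocorticoid receptor, had an FPKM of 14.1, 11.8 and 10.05 in WT mice and 12.8, 12.02 and 14.3 in TG mice. WT1 and TG3 were the high libraries and WT3 the low one, so both groups covered much of the same range. The log2 fold change was 0.13 (95% interval -0.18 to 0.44, adjusted p = 0.812 in limma), which bounds the fold between 0.882 and 1.36. Nr3c2 (ENSMUSG00000031618, chromosome 8 from 76899442 to 77245012, plus strand), the mineralocorticoid receptor, had an FPKM of 26.0, 28.0 and 24.6 in WT and 29.5, 25.1 and 25.0 in TG libraries. TG1 was highest, and the other TG libraries lay within the WT range. Its log2 fold change was 0.02 (95% interval -0.20 to 0.23, adjusted p = 0.973 in limma), or a fold between 0.873 and 1.17, and its direction turned under several alternatives. Of its exonic bases, 3.82% overlap Gm10649 on the opposite strand. Per length, Nr3c2 transcripts exceeded those of Nr3c1 in each library. The ratio of Nr3c2 to Nr3c1 FPKM was 1.84, 2.36 and 2.45 in the WT mice and 2.30, 2.09 and 1.74 in the TG mice. These ratios overlapped, with means of 2.22 ± 0.332 and 2.04 ± 0.283 (SD, n = 3 each; two-sided exact permutation test, p = 0.5, where 0.1 is the smallest p that 3 against 3 allows).

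Fkbp5 (ENSMUSG00000024222, chromosome 17 from 28399094 to 28517527, minus strand) encodes an Hsp90 co-chaperone that lowers the hormone affinity of the receptor and is itself induced by it. Its FPKM was 8.11, 8.65 and 9.42 in WT and 9.43, 8.17 and 8.69 in TG libraries. The ranges of the groups were nearly the same, with means of 8.73 ± 0.655 and 8.76 ± 0.636 (SD, n = 3 each). The log2 fold change was 0.01 (95% interval -0.21 to 0.22, adjusted p = 0.991 in limma), so that a fold under 0.867 or over 1.16 lay outside the interval. This rested on 1323 to 1669 reads per library.

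Sgk1 (ENSMUSG00000019970, chromosome 10 from 21882184 to 21999903, plus strand) encodes a serum- and glucocorticoid-induced kinase that acts on ion channels and transporters. The exact receptor element shown above lies in the window at chr10:21993640-21993939, among several promoter windows of this gene. Its FPKM was 20.6, 28.3 and 29.1 in the WT mice and 30.1, 34.2 and 32.8 in the TG mice. The lowest TG library exceeded the highest WT library, with WT1 far below the other WT libraries and TG1 close above WT3. The means were 26.0 ± 4.71 and 32.4 ± 2.06 (SD, n = 3 each), and the log2 fold change was 0.33 (SE 0.137, 95% interval 0.01 to 0.65, unadjusted p = 0.0453 and adjusted p = 0.786 in limma). The size depended on WT1. Without WT1 the log2 fold change was 0.17 (unadjusted p = 0.0940 in limma), and without each of the other libraries in turn it lay between 0.29 and 0.42, with an unadjusted p of 0.0555, 0.121 and 0.0992 in limma without TG1, TG2 and TG3. TG3, the TG library without a choroid plexus signal, was 0.35 above the WT mean on the log2 scale, against 0.23 for TG1 and 0.41 for TG2. When the choroid plexus score, the mean log2 value of its 18 genes, entered the fit, the log2 fold change was 0.34 (unadjusted p = 0.142 in limma). WT1 also held the most meningeal RNA. The 12 meningeal genes summed to 619 FPKM there, to 245 and 209 in the other WT libraries and to 286 to 499 in TG libraries, and none was at 0. With their score as a covariate, an alternative chosen once the data had been seen, the log2 fold change of Sgk1 was 0.42 (unadjusted p = 0.00149 and adjusted p = 0.951 in limma).

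Tsc22d3 (ENSMUSG00000031431, chromosome X from 140539528 to 140600659, minus strand), also known as Gilz, encodes a leucine zipper protein that mediates anti-inflammatory effects of glucocorticoids. Its FPKM was 16.05, 19.8 and 26.3 in WT libraries and 19.9, 19.2 and 19.9 in TG libraries. The 3 TG libraries were nearly equal and lay inside the WT range, whose ends were set by WT1 and WT3. The means were 20.7 ± 5.19 and 19.7 ± 0.439 (SD, n = 3 each), with a log2 fold change of -0.05 (95% interval -0.43 to 0.34, adjusted p = 0.952 in limma). Zbtb16 (ENSMUSG00000066687, chromosome 9 from 48654297 to 48836222, minus strand), a zinc finger repressor induced by glucocorticoids in many tissues, had an FPKM of 10.9, 14.4 and 9.58 in WT libraries and 11.96, 11.03 and 12.0005 in TG libraries. Here too the TG libraries fell between the WT extremes, which were WT3 and WT2. Its log2 fold change was 0.03 (95% interval -0.31 to 0.36, adjusted p = 0.972 in limma).

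Pdk4 (ENSMUSG00000019577, chromosome 6 from 5483351 to 5496309, minus strand) encodes pyruvate dehydrogenase kinase 4, which restrains glucose oxidation and is induced by glucocorticoids and by fatty acids. Its FPKM was 3.31, 3.40 and 3.33 in the WT mice and 3.94, 4.07 and 4.05 in the TG mice. Both groups were tight and the TG libraries lay wholly above. The means were 3.35 ± 0.0480 and 4.02 ± 0.0688 (SD, n = 3 each), so the TG mean was 20.1% above the WT mean, and the log2 fold change was 0.26 (SE 0.0840, 95% interval 0.06 to 0.45, unadjusted p = 0.0176 and adjusted p = 0.786 in limma). This unadjusted p ranked 375 among the 20952 genes. The values rest on 193 to 257 reads per library, for which counting alone gives a coefficient of variation of about 6.64%, larger than the 1.43% and 1.71% seen within WT and TG. Leaving out each library in turn gave log2 fold changes between 0.25 and 0.27. The value was 0.26 with the choroid plexus score as a covariate, and TG3 alone was 0.27 above the WT mean. The unadjusted p passed 0.05 without TG2 (0.0521) and without TG3 (0.0582), as it did with the choroid plexus score (0.0942, limma in each case).

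**Figure D2:**
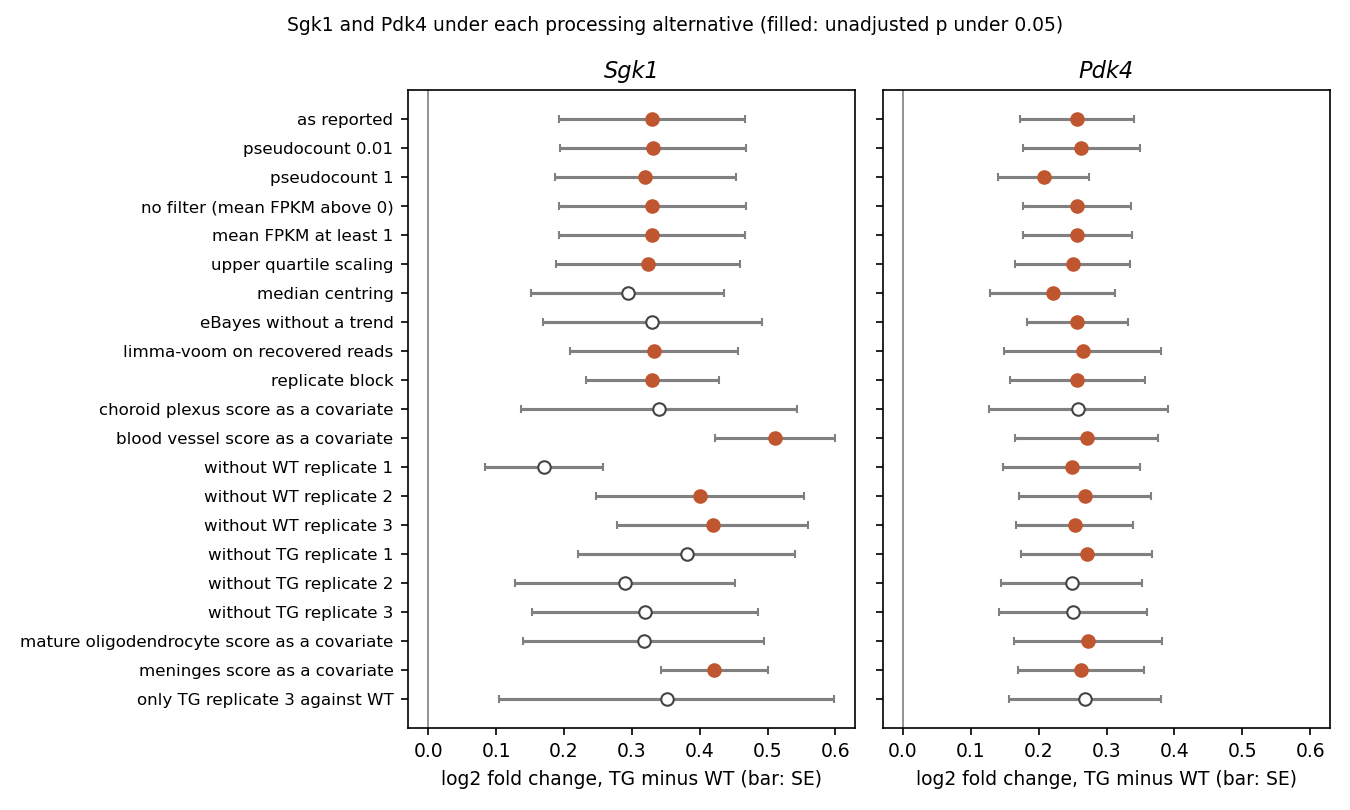
log2 fold change (TG minus WT, x axis, bars are standard errors) of Sgk1 and Pdk4 as reported and under each alternative, filled where the unadjusted p was under 0.05. Pdk4 stays between 0.21 and 0.27 throughout, whereas Sgk1 falls to 0.17 without WT1 and reaches 0.51 with a blood vessel score as a covariate.

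Sult1a1 (ENSMUSG00000030711, chromosome 7 from 126672865 to 126676432, minus strand), a phenol sulfotransferase, had an FPKM of 7.29, 7.48 and 11.3 in WT libraries and 8.05, 7.70 and 6.91 in TG libraries. WT3 alone was high and the other 5 libraries were close together. The log2 fold change was -0.17 (95% interval -0.58 to 0.23, adjusted p = 0.805 in limma) and became 0.03 without WT3. Other genes share 6.58% of its 50-base transcript stretches, the largest share among the 10 genes. Cdkn1a (ENSMUSG00000023067, chromosome 17 from 29090976 to 29100727, plus strand), the cell cycle inhibitor p21 and a target of p53 as well as of the glucocorticoid receptor, had an FPKM of 2.09, 2.42 and 2.44 in WT libraries and 2.92, 2.37 and 2.07 in TG libraries. TG1 was highest and TG3 lowest of all 6, so the TG libraries enclosed the WT range. The log2 fold change was 0.07 (95% interval -0.28 to 0.43, adjusted p = 0.915 in limma), and 7.68% of its exonic bases overlap AC167363.2 on the opposite strand. Hif3a (ENSMUSG00000004328, chromosome 7 from 17031507 to 17062427, minus strand), a hypoxia-inducible factor that can act as an inhibitor of its relatives, had an FPKM of 1.28, 2.96 and 2.01 in WT libraries and 2.26, 1.63 and 1.65 in TG libraries. It varied most of the 10 genes within WT mice, with WT1 lowest and WT2 highest. Its log2 fold change was -0.11 (95% interval -0.79 to 0.57, adjusted p = 0.935 in limma), so the interval runs from a fold of 0.579 to one of 1.49.

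**Figure D3:**
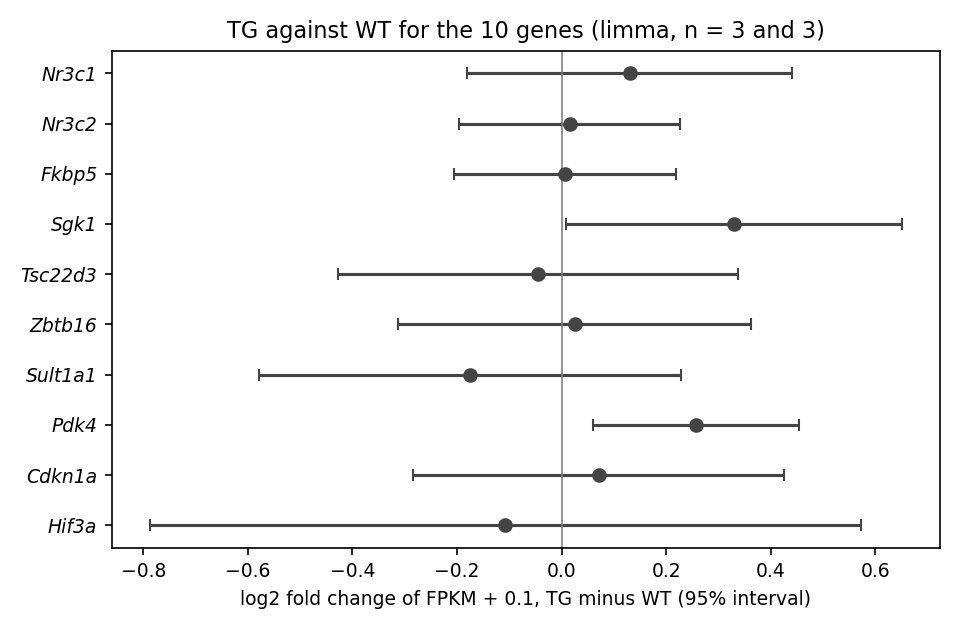
log2 fold change of FPKM + 0.1 (TG minus WT, x axis) of the 10 genes with 95% intervals from limma, 3 libraries per group. The intervals of Sgk1 (0.01 to 0.65) and Pdk4 (0.06 to 0.45) lie above 0 and the other 8 include it.

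In order of mean FPKM over the 6 libraries, which is a level per length, Sgk1 (29.2) was followed by Nr3c2 (26.4), Tsc22d3 (20.2), Nr3c1 (12.5), Zbtb16 (11.6), Fkbp5 (8.74), Sult1a1 (8.13), Pdk4 (3.68), Cdkn1a (2.38) and Hif3a (1.97). The ranges of neighbours overlapped between Sgk1, Nr3c2 and Tsc22d3, between Nr3c1 and Zbtb16, between Fkbp5 and Sult1a1 and between Cdkn1a and Hif3a. Tsc22d3 and Nr3c1, Zbtb16 and Fkbp5, Sult1a1 and Pdk4, and Pdk4 and Cdkn1a were apart in all libraries. Sgk1 stood above 91.9% of the genes tested and Hif3a above 46.3%.

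Single libraries set much of the spread among WT mice. WT1 held the lowest FPKM of all 6 libraries for Fkbp5, Sgk1, Tsc22d3, Pdk4 and Hif3a, and all 8 response genes lay below their WT mean there, with a median difference of -0.18 on the log2 scale. Over all genes tested, the median difference in WT1 was -0.00083. In the same library Nr3c1 was 0.25 above its WT mean. WT3 showed the reverse for part of the genes, with Tsc22d3 0.37, Sult1a1 0.41 and Sgk1 0.18 above and Nr3c1 -0.24 from the WT mean. In both of these libraries 6 of the 8 response genes stood on the other side of their WT mean from Nr3c1, while Zbtb16 and Pdk4 were below theirs in both, a description with no test. WT1 and WT3 both enter the WT mean, so they are not separate observations. Among TG mice the response genes had median differences of 0.15 (TG1), -0.07 (TG2) and -0.02 (TG3). The coefficient of variation was larger in WT than in TG mice in 7 of the 10 genes, with medians of 17.6% and 7.50%, beside 60.9% of all genes at a mean FPKM of 1 or more, where the medians were 10.1% and 7.76%.

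**Figure D4:**
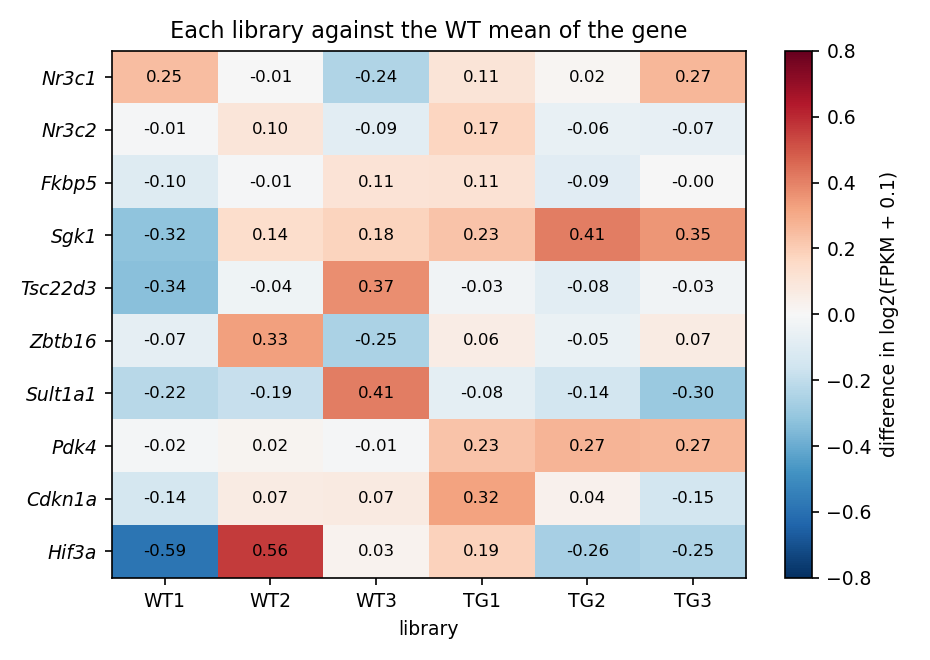
Difference of each library from the WT mean of the gene in log2(FPKM + 0.1), by library (columns) and gene (rows), with red for above and blue for below. In the Pdk4 row the TG libraries are at 0.23, 0.27 and 0.27, while WT1 is below the WT mean in all 8 response genes.

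The patterns most like that of Fkbp5 over the 6 libraries, by Pearson's r of log2(FPKM + 0.1) among 13324 genes whose mean FPKM reached 1, belonged to Paqr8, Rabggta and Maz, with r of 0.996, 0.980 and 0.978 and Spearman's rho of 0.886, 0.943 and 0.886. Without WT3 and TG1, the libraries farthest from the median of Fkbp5, r was 0.996, 0.987 and 0.987. This is no separate check, since these genes were picked for the highest r over the same libraries. In all, 100 of these genes, or 0.751%, had an r over 0.9. Of the other 9 genes of the set, Tsc22d3 was nearest to Fkbp5 (r = 0.760, rho = 0.943) and Nr3c1 farthest (r = -0.49, rho = -0.20). This order rested on WT3 and TG1, since without them Zbtb16 was nearest (r = 0.786, against 0.754 for Tsc22d3), Sult1a1 farthest (r = -0.51) and Nr3c1 at -0.0054. These are descriptions over 6 libraries of 2 genotypes.

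Further genes of the pathway were taken from hand-written lists. Beside their counts, 10398 of all 20952 genes tested had a log2 fold change above 0 and 10554 below. An unadjusted p under 0.05 was found in 5.91% of all genes. Of 30 other glucocorticoid response genes, 18 had a log2 fold change above 0 and 12 below, with a median of 0.04, and none was called. The median was -0.0070 without WT1 and -0.0030 without TG1. Per1 and Per2, clock genes with receptor elements, were higher and the metallothionein Mt2 was lower at an unadjusted p under 0.05. Per1 had an FPKM of 15.6, 18.3 and 14.1 in WT and 19.7, 18.3 and 20.6 in TG libraries (log2 fold change 0.29, adjusted p = 0.786 in limma), with TG2 only just above WT2. Mt2 had 7.63, 9.05 and 14.3 in WT and 5.05, 5.98 and 6.87 in TG libraries (log2 fold change -0.74, SE 0.228, unadjusted p = 0.0135 in limma). Every TG library lay below every WT library, and WT3 was again the highest. Glul, the glutamine synthetase gene and the most abundant of the list, had 469 ± 40.9 and 466 ± 14.6 FPKM (SD, n = 3 each).

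Among 18 receptor chaperones, 14 log2 fold changes were below 0 and 4 above, with a median of -0.05. WT3 carried this shift of the median, with a median of 0.13 above the WT means of these genes against -0.05 in WT1 and -0.07 in WT2, and without WT3 the median log2 fold change was 0.0061. In 3 of the 18 every TG library lay below every WT library, and in 2 above, beside 5.71% and 6.35% of all genes tested. The inducible Hsp70 gene Hspa1a had an FPKM of 4.47, 3.57 and 3.82 in WT and 4.56, 4.79 and 5.04 in TG libraries (log2 fold change 0.28, unadjusted p = 0.0362 in limma). Ahsa1, an activator of the Hsp90 ATPase, was the only one lower at an unadjusted p under 0.05 (log2 fold change -0.21, unadjusted p = 0.0453 in limma). The most abundant, Hsp90ab1, had 567 ± 30.8 and 548 ± 23.4 FPKM (SD, n = 3 each). Of 19 receptor coregulators, 15 were above 0 with a median of 0.08, which was 0.01 without WT3. Ncoa2, a p160 coactivator of steroid receptors, was the one with an unadjusted p under 0.05 (FPKM of 5.88 to 7.21 in WT and 7.66 to 8.32 in TG libraries, log2 fold change 0.25). Ddx5, the most abundant coregulator, had 148 ± 14.9 and 133 ± 7.36 FPKM (SD, n = 3 each). Of 16 genes of steroid enzymes and transport, 11 were tested and none had an unadjusted p under 0.05 (6 above 0 and 5 below, median 0.00). Their smallest p belonged to Tspo, the mitochondrial translocator protein, with 4.06 to 6.64 FPKM in WT libraries and 6.43, 10.9 and 6.01 in TG libraries, highest in TG2, and their most abundant gene was Abcb1a, the efflux pump of brain vessels, with 7.74 ± 1.02 and 8.17 ± 0.364 FPKM (SD, n = 3 each). Hsd11b1, which regenerates active corticosterone, had 6.65 ± 0.685 and 5.88 ± 0.566 FPKM (SD, n = 3 each, log2 fold change -0.17, unadjusted p = 0.157 in limma). Hsd11b2, which inactivates it, was under the filter with at most 0.116 FPKM.

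**Figure D5:**
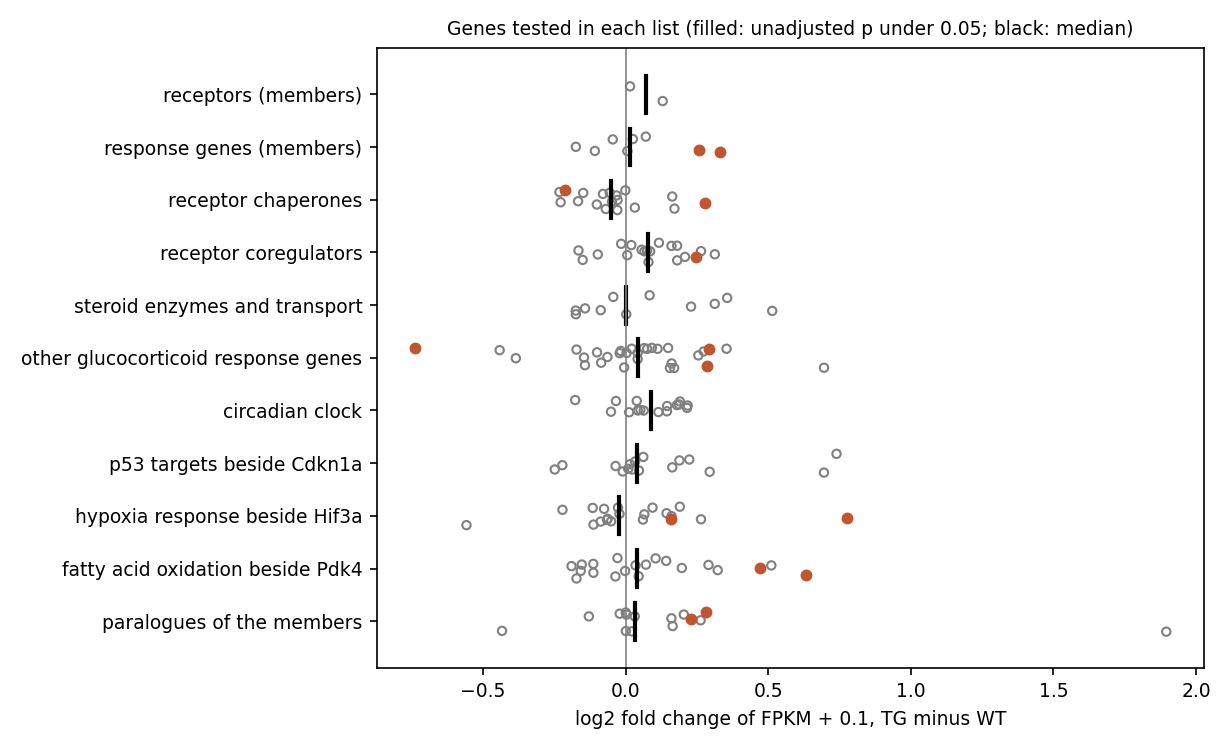
log2 fold change (TG minus WT, x axis) of each gene tested in the 2 lists of the 10 genes and 9 further lists (rows), filled where the unadjusted p was under 0.05, with a black line at the median of each list. The medians lie between -0.05 for the chaperones and 0.09 for the clock genes.

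The genes around single members were compared as well. Beside Pdk4, 20 genes of fatty acid oxidation had a median of 0.04, with 11 above 0, and of -0.01 without TG2. The smallest p of these lists was that of Cpt1a, which carries fatty acids into mitochondria, with an FPKM of 6.54, 5.56 and 5.55 in WT and 7.83, 9.63 and 7.21 in TG libraries (log2 fold change 0.47, SE 0.127, unadjusted p = 0.00715 and adjusted p = 0.786 in limma). The groups did not overlap, and TG2, with the most choroid plexus RNA, was highest. Ppara, a fatty acid sensor known to act on Pdk4 and Cpt1a, had 0.403 to 0.804 FPKM in WT and 0.771 to 0.955 in TG libraries. Like Cpt1a it had an unadjusted p under 0.05 in limma, but its groups overlapped. Whether it acted on these genes here was not tested. Fabp3, the most abundant of the list, had 60.3 ± 8.73 and 54.0 ± 6.60 FPKM (SD, n = 3 each). Beside Cdkn1a, none of 16 tested p53 targets had an unadjusted p under 0.05 (12 above 0, median 0.04, and 0.02 without WT1). Perp came closest and followed the choroid plexus libraries, with 3.76, 7.00 and 2.55 FPKM in the TG mice against 1.90 to 3.08 in WT libraries, and Ccng1, the most abundant, had 20.96 ± 2.18 and 21.1 ± 0.704 (SD, n = 3 each). Beside Hif3a, 9 of 20 genes of the hypoxia response were above 0 (median -0.02). Adm and Vegfa, secreted vascular peptides, had an unadjusted p under 0.05, with 0.434, 0.956 and 0.858 FPKM of Adm in WT and 1.60, 1.07 and 1.27 in TG libraries, and 9.54 to 10.2 of Vegfa in WT and 11.02 to 11.2 in TG libraries. Neither count nor direction of this list held throughout, as 0 genes had such a p without WT1, without TG1 or without TG3, and the median was 0.06 without TG2. Pgk1, the most abundant, had 184 ± 21.8 and 169 ± 5.97 (SD, n = 3 each).

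Of 16 further clock genes, a list that leaves out Per1 and Per2 because they stand among the glucocorticoid response genes above, 13 were above 0 and none had an unadjusted p under 0.05. Their median was 0.09, and 0.04 without TG3. Bhlhe40 had the smallest p (24.4 ± 1.36 and 27.9 ± 2.53 FPKM, SD, n = 3 each), and Tef, the most abundant, had 52.8 to 55.8 in WT and 58.6 to 60.1 in TG libraries without overlap. Among 15 tested paralogues of the 10 genes, 12 were above 0 with a median of 0.03, and of 0.08 without TG2. Tsc22d2 had the smallest p (log2 fold change 0.23, unadjusted p = 0.0445 in limma) and Zbtb7a was the other with an unadjusted p under 0.05, while Sult4a1, the brain sulfotransferase, had 189 ± 15.7 and 189 ± 12.2 FPKM (SD, n = 3 each). Pdk2 and Pdk3, kinases related to Pdk4, had 37.9 ± 1.73 and 13.4 ± 0.586 FPKM in WT and 38.4 ± 1.98 and 13.4 ± 0.794 in TG mice (SD, n = 3 each). Pdk4 was the least abundant of these 3 and the one with groups apart, as were 12.1% of all genes tested. No gene of these lists was called.

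Other cell types were followed beside these results. The 15 genes of mature oligodendrocytes, cells that also express Sgk1, were all below 0 (median log2 fold change -0.30) and summed to 757 to 939 FPKM in WT and to 582, 801 and 864 in TG libraries, lowest in TG1. With their score as a further covariate added later, the log2 fold change was 0.32 for Sgk1 (unadjusted p = 0.123 in limma) and 0.27 for Pdk4. The 15 endothelial genes summed to 108 to 123 FPKM in WT and 119 to 125 in TG libraries. With their score as a covariate, Sgk1 had a log2 fold change of 0.51 (unadjusted p = 0.000978 and adjusted p = 0.759 in limma) and Pdk4 of 0.27. That score was highest in WT1 (0.114), the library with the lowest Sgk1. It was -0.156 in WT2 and -0.102 in WT3, below the 0.0133 to 0.0935 of the TG libraries. How far the value of 0.51 rests on WT1 was not tested. The lists of pericytes and smooth muscle, meninges, blood, astrocytes, microglia, neurons, dentate gyrus, CA1, CA2 and CA3, and neighbouring regions had median log2 fold changes of 0.04, 0.27, -0.16, 0.00, 0.07, -0.01, -0.13, 0.05, -0.10 and 0.03, and the sex-linked genes 0.04. Tagln was the 1 cell type marker listed at 0 in a library. The part of these lists in the values of the 10 genes was otherwise not tested.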

How the data were processed

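Hippocampal RNA-seq libraries of 3 WT and 3 TG mice were used, 1 per mouse. The authors counted reads per gene with HTSeq and deposited FPKM, computed from the read count and the gene length, 1 column a library and unpooled. The aligner and the use of strand are not given in the sources used here, so overlapping and antisense genes are uncertain. The submitters' processing notes name GRCm38 and mm10, and 53499 of 54409 gene identifiers found in GENCODE M21 had the same start and end. For extraction and libraries the methods give Trizol and NEBNext, whereas the sample labels give RNeasy and SMARTER.

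Multiplying the deposited FPKM by gene length gave whole multiples of a constant for 100% of values per library (tolerance 0.05 reads), and so the reads per gene. On this scale 3 reads on 1 kb equal 0.160 to 0.190 FPKM, which limits counting only, since reads carry no molecular identifiers. The 20952 genes whose mean FPKM reached 0.1 were tested in limma 3.58.1 (R 4.3.3; lmFit, eBayes with a trend) on log2(FPKM + 0.1), 3 WT against 3 TG, without covariate or block. Fold changes on this scale understate those of low genes. Litters and dates are not stated, so a difference of litter or date between the groups could not be told from genotype. The p-values rest on the spread between these samples within each group, which eBayes moderates over all genes tested. The 10 genes, the gene lists and the tests were chosen with earlier results of these data known. Genes were named by this rule: the 10 genes, for each pathway list the most abundant gene and that of lowest p, and the 3 genes most like Fkbp5. Per1, Per2, Ahsa1, Hsd11b1, Hsd11b2, Ppara, Vegfa, Zbtb7a, Pdk2 and Pdk3 were named after their values were seen. Alternatives changed the pseudocount, the filter, the scaling, the variance model and the count scale (limma-voom on recovered reads), added a block or covariates, or left out libraries. Covariate scores of oligodendrocytes and meninges, TG3 alone against WT and the p53 search were added after seeing the data. Figures were drawn with matplotlib 3.10.9 in Python 3.11.15.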

Additional observations from a re-analysis of the deposited data

How the results depend on the processing

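Of 200 values of the 10 genes under 20 alternatives, 173 kept their direction and their side of the adjusted threshold and 27 changed direction, none of which was called, and none of the 10 genes was called under any alternative. The cause of the changes was not tested. Sgk1 and Pdk4 were the 2 genes at an unadjusted p under 0.05, and this number was 1 with median centring, eBayes without a trend or the oligodendrocyte score, 0 with the choroid plexus score or TG3 alone against WT, and 0 to 2 when each library was left out. The count of all genes called was 0 with a pseudocount of 0.01 or 1, no filter, limma-voom, the replicate block, each covariate or TG3 alone, 1 at a mean FPKM of at least 1, 9 without a trend and 0 to 11 leaving out 1 library. Genes at an unadjusted p under 0.05 were 336 higher and 376 lower with the choroid plexus score, 370 and 357 with the blood vessel score, 417 higher with TG3 alone, and 440 to 769 higher and 375 to 721 lower leaving out 1 library. Changed log2 fold changes of Nr3c2 were -0.021 (median centring), -0.013 (choroid plexus score), -0.062 (oligodendrocyte score), -0.066 (TG3 alone) and -0.063 to 0.064 leaving out 1 library. Those of Fkbp5 were -0.00052 (upper quartile), -0.030 (centring), -0.091 (oligodendrocyte), -0.0032 (TG3 alone) and -0.048 to 0.062. Tsc22d3 had 0.019 (choroid plexus), 0.11 (blood vessel), 0.043 (meninges) and -0.21 to 0.14. Zbtb16 had -0.011 (centring) and -0.10 to 0.19, and Sult1a1 -0.29 to 0.030. Cdkn1a had -0.051 (choroid plexus), -0.12 (oligodendrocyte), -0.15 (TG3 alone) and -0.056 to 0.18. Hif3a had 0.19 (blood vessel), 0.012 (meninges) and -0.40 to 0.17. Without each library, Nr3c1 lay between 0.0096 and 0.25, Sgk1 between 0.17 and 0.42 and Pdk4 between 0.25 and 0.27. List medians moved to 0.087 for steroid enzymes and 0.15 for clock genes (oligodendrocyte), to 0.14 for clock genes, 0.079 for p53 targets and 0.055 for hypoxia (TG3 alone), to 0.0040 (centring), 0.093 (blood vessel) and 0.074 (meninges) for p53 targets, and to 0.061 for hypoxia and -0.057 for fatty acid oxidation (choroid plexus). Leaving out 1 library, clock genes lay between 0.043 and 0.13, p53 targets between 0.017 and 0.080 and hypoxia between -0.032 and 0.061. Over all alternatives the number of genes at an unadjusted p under 0.05 ran from 0 to 3 for chaperones and hypoxia, 0 to 5 for other response genes, 1 to 3 for fatty acid oxidation, 0 to 2 for clock genes and paralogues, and 0 to 1 for coregulators, steroid enzymes and p53 targets. With the replicate block the log2 fold changes of Sgk1 and Pdk4 were 0.33 and 0.26, both still at an unadjusted p under 0.05, and no gene was called. Deviations of same-numbered mice correlated at 0.0125, 0.0434 and 0.00314. Such values cannot show whether a shared number links mice, which is not stated. At 133 to 321 reads a library, the coefficient of variation from counting alone was largest for Cdkn1a, Sult1a1, Pdk4 and Hif3a (8.23%, 6.81%, 6.64% and 6.62%). The coefficients seen were larger for Hif3a (40.4% in WT and 19.4% in TG) and Sult1a1 (26.3% and 7.76%).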
